A study of Mus musculus with 2 samples.

Results

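The genes described here encode auxiliary subunits of voltage-gated calcium channels. They are the 4 beta subunit genes Cacnb1, Cacnb2, Cacnb3 and Cacnb4 and the alpha2delta subunit genes Cacna2d1, Cacna2d2 and Cacna2d3. They were chosen by gene symbol, with earlier results of these data known. They make up 7 of 55536 annotated genes and 67 of 141864 annotated transcripts. Both libraries held ribosome-reduced total RNA from the hippocampus of female B6CASTF1/J mice, the first-generation offspring of the inbred strains C57BL/6J and CAST/EiJ. The mice were 8 to 10 months old and carried no stated treatment or engineered allele. Each library came from 1 animal (replicate 1 from animal 1, replicate 2 from animal 5), started from 300 ng of RNA and was made with a directional kit and ERCC spike-in transcripts. Both samples carry the same donor identifier in the labels. They were read as 2 animals because the animal numbers differ, and the SDs below, all with n = 2, rest on that reading. The labels give a layer of the hippocampus as tissue, without saying which one. There is 1 group and no contrast of conditions, so the values describe levels and the spread between animals, and no p-value was computed.

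A voltage-gated calcium channel has a pore-forming alpha1 subunit that opens when the membrane depolarizes. In the high-voltage-activated channels the alpha1 subunit binds a cytoplasmic beta subunit, which promotes surface delivery and tunes gating, and an extracellular alpha2delta subunit, which is cleaved from 1 precursor and raises the number of channels at the surface and at synapses. Beta subunits share a guanylate kinase-like and an SH3-like domain, joined by a variable linker, and differ in their ends and in that linker through alternative splicing. Loss of Cacnb4 causes ataxia and seizures in lethargic mice, loss of Cacna2d2 does so in ducky mice, and the alpha2delta subunits encoded by Cacna2d1 and Cacna2d2 bind gabapentin. In brain the genes are known mainly from neurons. In tissue RNA, fewer cells of a type and less RNA per cell cannot be told apart.

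Beta subunit transcripts differ, among other places, at the variable exon of the linker and at the first coding exon. The short variable exon is shown first, because all 4 genes have a 20-base version at the same place. Sequences are from the GENCODE M21 transcripts of build mm10, on the coding strand. Capitals mark the exon and lower case 15 coding bases on each side. The exons lie at chr11:98010627-98010646 (minus strand) in Cacnb1, chr2:14968218-14968237 (plus) in Cacnb2, chr15:98640959-98640978 (plus) in Cacnb3 and chr2:52465894-52465913 (minus) in Cacnb4. A second 20-base exon of Cacnb4, used by the transcript Cacnb4-206, lies at chr2:52467144-52467163.
Cacnb1 short: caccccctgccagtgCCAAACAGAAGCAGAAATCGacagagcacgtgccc
Cacnb2 short: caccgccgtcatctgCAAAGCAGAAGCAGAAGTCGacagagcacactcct
Cacnb3 short: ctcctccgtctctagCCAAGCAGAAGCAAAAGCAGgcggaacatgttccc
Cacnb4 short: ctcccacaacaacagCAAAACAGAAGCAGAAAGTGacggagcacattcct
Cacnb4 second short: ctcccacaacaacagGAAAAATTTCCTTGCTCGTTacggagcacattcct
Compared base by base, the first 4 short exons matched one another at 14 to 17 of 20 positions. The second short exon of Cacnb4 matched them at 2 to 7 of 20.

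Cacnb1 and Cacnb2 also have a long exon that takes the place of the short one. It is printed in full because it was the main form in Cacnb2 and a minor one in Cacnb1. The long exon of Cacnb1 spans 155 bases at chr11:98011343-98011497 and that of Cacnb2 134 bases at chr2:14967942-14968075. In Cacnb1 it is the exon of the form known from skeletal muscle.
Cacnb1 long: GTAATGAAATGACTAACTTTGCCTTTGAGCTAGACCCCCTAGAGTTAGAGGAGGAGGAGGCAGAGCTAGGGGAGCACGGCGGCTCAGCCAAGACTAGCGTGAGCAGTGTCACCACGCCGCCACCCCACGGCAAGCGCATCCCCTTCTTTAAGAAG
Cacnb2 long: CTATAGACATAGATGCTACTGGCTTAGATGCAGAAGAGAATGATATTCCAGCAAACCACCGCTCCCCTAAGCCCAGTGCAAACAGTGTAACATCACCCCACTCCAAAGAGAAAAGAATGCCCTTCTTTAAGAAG

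Cacna2d1 and Cacna2d2 each have a 21-base exon that is in some coding transcripts and not in others. It lies at chr5:16341990-16342010 in Cacna2d1 and chr9:107519179-107519199 in Cacna2d2, both on the plus strand, and adds 7 codons. Capitals again mark the exon.
Cacna2d1 21-base: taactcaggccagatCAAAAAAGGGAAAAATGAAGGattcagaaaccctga
Cacna2d2 21-base: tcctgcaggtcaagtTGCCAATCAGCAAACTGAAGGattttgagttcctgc
The 2 exons matched at 12 of 21 positions.

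All 7 genes were detected, meaning a level of at least 1 TPM in both animals, against 59.1% of the 22028 protein-coding genes. The remaining alpha2delta gene, Cacna2d4, is not among the members and was under that level, at 0.45 and 0.69 TPM. The members were chosen with earlier results of these data known, so the count of 7 is a description only. TPM is a level corrected for transcript length and library size, so it can be compared between genes. Among the members, Cacnb3 had the highest level and Cacna2d2 the lowest. Of the detected protein-coding genes, 91.1% had a lower mean TPM than Cacnb3 and 34.2% a lower one than Cacna2d2. The other members lay above 77.6% to 89.1% of them, and the median of the detected protein-coding genes was 17.6 TPM. Taking TPM over nuclear protein-coding genes alone raised each member's level by more than 1.5 times, for example to 184 TPM for Cacnb3 and 20.9 for Cacna2d2, with the same order.

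Cacnb3, a beta subunit gene on the plus strand at chr15:98630840-98644529 (ENSMUSG00000003352.14), stood at 93.5 TPM in replicate 1 and 89.9 in replicate 2, from 4732 and 3823 counts. Its mean of 91.7 ± 2.58 TPM exceeded that of every other member by more than the SD of both. At 13.7 kb it has the shortest gene span of the members.

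Cacnb1 at chr11:98001508-98023034 on the minus strand (ENSMUSG00000020882.17) encodes the beta subunit that is also part of the skeletal muscle channel. It stood at 70.2 and 67.9 TPM, or 69.1 ± 1.65, from 4196 and 3339 counts. It was lower than Cacnb3 and higher than Cacnb2 in both animals.

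Cacnb2 at chr2:14603088-14987908 on the plus strand (ENSMUSG00000057914.15), whose product is the main beta subunit of the heart, stood at 41.2 and 47.7 TPM from 2529 and 2405 counts. Cacnb4 at chr2:52428320-52676831 on the minus strand (ENSMUSG00000017412.15) stood at 38.7 and 47.6 TPM from 5972 and 5138 counts. Their means, 44.4 ± 4.59 and 43.1 ± 6.27 TPM, did not differ beyond the spread between animals.

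The order of Cacnb2 and Cacnb4 changed with the transcripts counted. A processed transcript of 208 bases, Cacnb4-205, had 7 counts in replicate 1 and 21 in replicate 2. Because TPM divides by length, those counts amounted to 3.07 and 11.0 TPM, or 7.93% and 23.2% of the Cacnb4 level. It was 0 in both animals in the second transcript table, which has the layout of kallisto. Without transcripts under 400 bases, Cacnb4 was at 35.6 and 36.5 TPM, and its mean of 36.1 ± 0.64 lay below the 44.4 ± 4.6 TPM of Cacnb2. With protein-coding transcripts only, the order turned, with Cacnb2 at 27.8 ± 1.05 TPM and Cacnb4 at 36.1 ± 0.64. The second table had Cacnb2 at 46.8 ± 4.78 and Cacnb4 at 31.5 ± 0.09 TPM.

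Cacna2d1 at chr5:15934691-16374511 on the plus strand (ENSMUSG00000040118.15) was the highest of the alpha2delta genes. It stood at 73.2 and 82.8 TPM from 8876 and 8221 counts, a mean of 78.0 ± 6.76 TPM. In the gene table it exceeded Cacnb1 by more than either SD, and in the second table, at 66.4 ± 6.13 against 61.3 ± 2.08 TPM, it did not.

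Cacna2d3 at chr14:28904943-29721864 on the minus strand (ENSMUSG00000021991.9), the longest of the members at 817 kb, stood at 50.8 and 51.1 TPM from 3433 and 2912 counts. Its mean of 51.0 ± 0.23 TPM lay between those of Cacna2d1 and Cacna2d2 in both animals.

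Cacna2d2 at chr9:107399612-107529343 on the plus strand (ENSMUSG00000010066.15) stood at 10.2 and 10.7 TPM from 892 and 838 counts, the fewest of any member. Its mean was 10.4 ± 0.35 TPM. The gene is known for its high level in cerebellar Purkinje cells. Of 4 Purkinje markers, 2 were detected, Pcp2 was listed at 0 in both animals, and the summed level was 55.8 and 60.8 TPM, of which Calb1, a gene that hippocampal neurons also express, held 54.1 and 59.1.

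**Figure D1:**
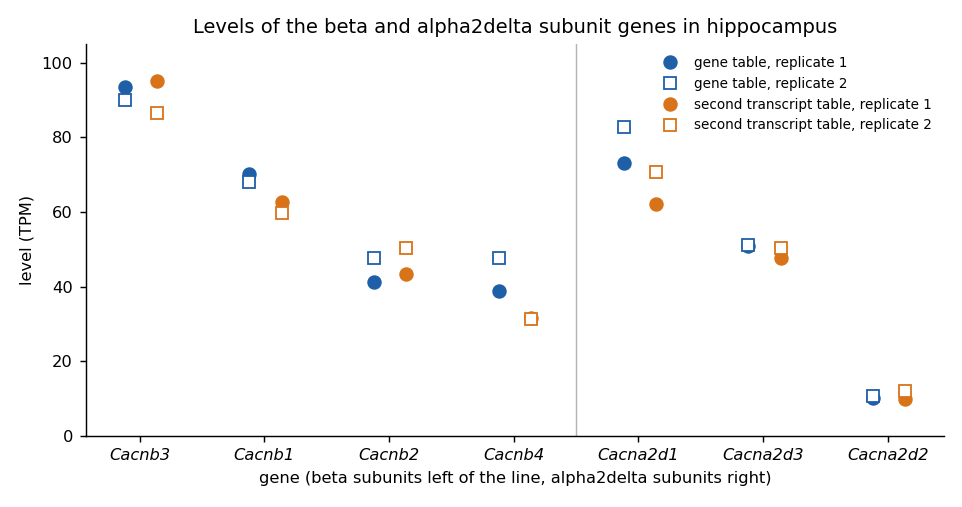
Level in TPM (y axis, linear) of each beta and alpha2delta gene (x axis) in each animal, from the gene table (blue) and the second transcript table (orange); filled circles are replicate 1 and open squares replicate 2. Cacnb3 is highest and Cacna2d2 lowest in both tables, while Cacnb2 and Cacnb4 overlap in the gene table and are separate in the second.

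Within the families, Cacnb3 held 38.4% and 35.5% of the summed beta subunit TPM, Cacnb1 28.8% and 26.8%, Cacnb2 16.9% and 18.8%, and Cacnb4 15.9% and 18.8%. Cacna2d1 held 54.5% and 57.2% of the summed alpha2delta TPM, Cacna2d3 37.9% and 35.4%, and Cacna2d2 7.59% and 7.39%. The leading gene of each family was the same in both animals.

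At the variable exon, Cacnb1 mostly carried the short form and Cacnb2 the long one. The share of an exon form is the part of the TPM of all transcripts spanning the site that carries it. The short 20-base exon printed above held 89.2% and 86.7% of Cacnb1, or 87.9 ± 1.78%, and 95.4% and 94.7% of Cacnb3, or 95 ± 0.48%. In Cacnb2 it held 13.7% and 12.6%, or 13.2 ± 0.75%, and the long 134-base exon the remaining 86.8 ± 0.75%. The Cacnb2 value lay below that of Cacnb1 in both animals, by more than the SD of either.

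All 4 spanning transcripts of Cacnb4 carry a 20-base exon, so its total of 100% is fixed by the annotation. Cacnb3 has no annotated long exon either, and its only spanning transcript without the short exon, Cacnb3-205, retains an intron, so its share is no measured contrast with Cacnb2. The second Cacnb4 exon, carried by Cacnb4-206, was at 0 and 0.25 TPM in the first table and at 3.5 and 3.35 in the second. The second table gave a short-exon share of 78.3 ± 0.07% in Cacnb1, 94.4 ± 0.35% in Cacnb3 and 23.5 ± 1.22% in Cacnb2, again below Cacnb1. In Cacnb2 most of the short-exon share rested on Cacnb2-212, a 430-base partial coding transcript with 27.9 counts in each animal, and by counts in place of TPM it was 1.67% and 1.39%.

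The long exon of Cacnb1 held 5.77% and 6.16% of the spanning TPM, and 11.3% and 9.30% in the second table. Most of it came from Cacnb1-204, whose start codon lies in a different first exon, at 3.27 and 4.18 TPM in the first table. Cacnb1-202, with 524 codons, combines the long exon with the main start codon and corresponds to the muscle form. It had 29.4 counts in replicate 1 and 0 in replicate 2, or 0.78 and 0 TPM. Of 5 skeletal and heart muscle markers, 2 were detected (Acta1 and Actn2), their summed level was 12.9 and 14.2 TPM, and the defining muscle gene Ckm was at 0.04 and 0.14. A part of muscle cells in the Cacnb1 values was not tested.

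The exon of 81 bases that follows the short exon in Cacnb3, at chr15:98641177-98641257, was absent from 1 of 3 spanning transcripts, Cacnb3-201. That transcript, which has 457 codons, held 10.3% and 13.1% of the spanning TPM, or 11.7 ± 1.97%. In the second table the share was 18.5 ± 2.39%.

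The 21-base exon of Cacna2d1 was in a minority of the coding TPM, with 27.9% and 28.5%, or 28.2 ± 0.38%. By counts in place of TPM it was 16.8% and 17.2%. Transcripts without extra bases there held 51.9% and 60.4%, or 56.1 ± 5.98%. The rest, 20.2% and 11.2%, belonged to Cacna2d1-205, an annotated transcript in which 21 other bases stand at the same place. Its coding sequence and that of Cacna2d1-203 both span 3273 bases and differ at 12 of them, all within the 21-base exon.

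The part without the exon was larger in the first table than in the second, where it was 41.8 ± 0.53%, with 32.9 ± 1.06% for the exon and 25.3 ± 1.59% for Cacna2d1-205. Cacna2d1-203 and Cacna2d1-205 both have 1091 codons, and Cacna2d1-202 has 1084. Of the TPM of complete coding transcripts, 1091 codons held 42.9 ± 6.25% and 1084 codons 55.3 ± 6.01% in the first table. In the second table the longer form led, with 54.8 ± 2.41% against 40.5 ± 1.23%. The deposited posterior SD of a count measures how uncertain the assignment of reads to transcripts was. For Cacna2d1-205 it was 8.47 times the square root of the count in replicate 1 and 8.44 times in replicate 2, against 1.83 and 2.35 times for Cacna2d1-203. The exon was also tied to the transcript's end in the annotation. Cacna2d1-203 is 3879 bases long, Cacna2d1-202, which lacks the exon, is 7311, and transcripts with a last exon over 3 kb held 72.1% and 71.5% of the TPM of full-length coding transcripts.

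The 21-base exon of Cacna2d2 held 41.5% and 32.4% of the coding TPM, or 37 ± 6.46%, and the form without it 58.5% and 67.6%. In the second table the exon held 43.0 ± 0.77%. In both tables, and in both animals, the form without the exon was the larger of the pair.

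**Figure D2:**
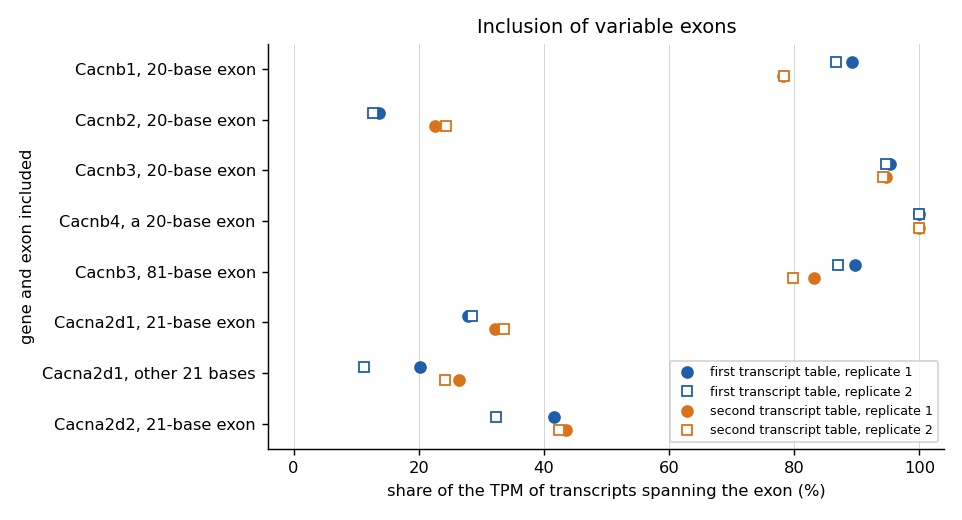
Share (x axis, percent) of the TPM of transcripts spanning a site that carry the named exon (y axis), per animal (filled circle, replicate 1; open square, replicate 2) and table (blue, first transcript table; orange, second). The 20-base exon lies above 78% in Cacnb1 and below 25% in Cacnb2 (Cacnb3 and Cacnb4 have no annotated long form), whereas the 21-base exons of Cacna2d1 and Cacna2d2 lie between 27% and 44%.

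The start of the coding sequence is another place where the beta transcripts differ. The first coding exons of the forms discussed next are shown with the start codon in capitals. Where the coding part of the first exon is shorter than 24 bases, as in Cacnb4-203 with 6, the next exon is included up to 24.
Cacnb1-201: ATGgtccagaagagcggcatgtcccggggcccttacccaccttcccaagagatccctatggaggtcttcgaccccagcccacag
Cacnb1-204: ATGgaggtgcccagccggaccctggtagtg
Cacnb2-203: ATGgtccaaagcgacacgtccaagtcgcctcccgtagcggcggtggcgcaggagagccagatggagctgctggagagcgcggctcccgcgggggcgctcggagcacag
Cacnb2-202: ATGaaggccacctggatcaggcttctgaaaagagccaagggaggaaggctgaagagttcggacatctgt
Cacnb2-214: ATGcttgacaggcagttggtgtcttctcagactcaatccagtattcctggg
Cacnb3-206: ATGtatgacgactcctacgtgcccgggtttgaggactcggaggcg
Cacnb3-202: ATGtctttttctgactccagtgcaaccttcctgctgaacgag
Cacnb4-201: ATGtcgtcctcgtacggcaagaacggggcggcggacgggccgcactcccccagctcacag
Cacnb4-202: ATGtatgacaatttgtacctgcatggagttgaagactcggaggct
Cacnb4-203: ATGgctgggtcagcagattcctat
Their coding parts lie at chr11:98022342-98022425 and chr11:98018273-98018302 for Cacnb1, and at chr2:14604451-14604558, chr2:14873877-14873945 and chr2:14824256-14824306 for Cacnb2, in the order printed. They lie at chr15:98635169-98635213 and chr15:98632479-98632520 for Cacnb3, and at chr2:52676271-52676330, chr2:52558269-52558313 and chr2:52556202-52556207 for Cacnb4.

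Cacnb1 was dominated by 1 start. The 597-codon form Cacnb1-201 held 78.8% and 79.3% of the TPM of complete coding transcripts, or 79.0 ± 0.40%, and the 479-codon form Cacnb1-205, which shares its start, 15.2% and 14%. The start of Cacnb1-204 held 4.90% and 6.63%. In the second table the 597-codon form held 78.6 ± 1.40% and the start of Cacnb1-204 10.9 ± 0.38%.

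Cacnb2 was led by the 655-codon form Cacnb2-203, with 76.1% and 80.0% of the complete coding TPM, or 78.1 ± 2.73%. Cacnb2-202, of 611 codons, held 15.2% and 14.1%, and Cacnb2-214, of 605 codons, 5.25% and 4.38%. In the second table Cacnb2-203 led with 57.8 ± 0.42%, but the other starts exchanged places between animals. Cacnb2-202 was at 24.9% in replicate 1 and 6.19% in replicate 2 there, and Cacnb2-214 at 6.13% and 24.6%.

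For Cacnb3 the tables gave different splits between starts, and in replicate 2 different leading forms. In the first, the 484-codon form Cacnb3-206 held 80.0% and 73.9% of the complete coding TPM, and the 483-codon form Cacnb3-202, which starts further upstream, 9.70% and 13%. In the second, Cacnb3-206 held 46.1% in replicate 1 and 2.58% in replicate 2, and Cacnb3-202 held 37.1% and 77.2%. The gene's total in the second table, at 95 and 86.6 TPM, was within 4 TPM of that in the gene table for each animal, so the tables split a like total differently.

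Cacnb4 was the beta gene whose starts differed most between animals in the first table. The 473-codon form Cacnb4-203 held 58.5% of the complete coding TPM in replicate 1 and 35.4% in replicate 2. The 486-codon form Cacnb4-202 held 21% and 29.8%, and the 519-codon start, shared by Cacnb4-201 and Cacnb4-206, 20.5% and 34.8%. The second table moved the same way for each start, from 41.2% to 25.5%, from 39.8% to 44.6% and from 19.0% to 29.8%. The posterior SDs of these 3 transcripts, Cacnb4-201 to Cacnb4-203, were 3.42 to 5.71 times the square root of the count over both animals.

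Across whole genes, the leading transcript was the same in both animals for 7 of 7 members in the first table, where 85.0% of 11777 protein-coding genes shared it. For 5 of 7 it was also the leading transcript in both animals of the second table, against 67.4% of the same genes, and the exceptions were Cacnb3 and Cacnb4. Read against those shares, neither count sets these 7 genes apart. In the first table, Cacna2d3-201 held the largest share of its gene, 79.8% and 80.8%. The leading transcripts of Cacnb1 (Cacnb1-201, 74.8% and 73.6%) and Cacnb3 (Cacnb3-206, 76.1% and 70.1%) came next there. In the second table Cacnb1-201, at 69.5% and 69.7%, and Cacna2d3-201, at 69.4% and 67%, lay close together. In the first, Cacna2d1-202 held 46.6% and 53.2%, Cacnb2-203 42.6% and 39.8%, Cacnb4-203 53.9% and 27.2%, and Cacna2d2-208 33.7% and 37.3%.

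In the first table, transcripts not annotated as protein coding took a larger part of Cacnb2 than of any other member, with 34.3% and 40.2%, or 37.2 ± 4.12% of its TPM. Transcripts with a retained intron, of which Cacnb2 has 10, held 22.8% and 28.2%, and the processed transcript Cacnb2-210, of 4146 bases, 11.5% and 12%. The median over protein-coding genes with several transcripts was 14.4% and 14.9%. Cacnb2 lay above that median, which is from the first table, in both animals. In the second table, for which no median was computed, Cacnb2 had 34.6 ± 0.27%. Cacna2d2 had 23.9% and 19.0%, Cacna2d3 18.6% and 18.0%, Cacna2d1 8.78% and 10.7%, Cacnb1 5.03% and 7.16%, and Cacnb3 4.90% and 5.10%. Cacnb4, at 7.93% and 23.2%, was the member with the widest gap between animals, from the short Cacnb4-205. The second table set Cacna2d2, at 29.2% and 36.9%, and Cacna2d3, at 31.8 ± 1.71%, close to Cacnb2. It also gave 19.1 ± 1.56% for Cacnb3, 11.4 ± 1.36% for Cacnb1 and 3.52 ± 2.06% for Cacnb4, all more than 1.5 times away from the first. In Cacna2d2 the first table had 26.2 and 3.73 counts for Cacna2d2-207, where the second had 27 and 22.3, so the difference between animals there was not seen in both.

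**Figure D3:**
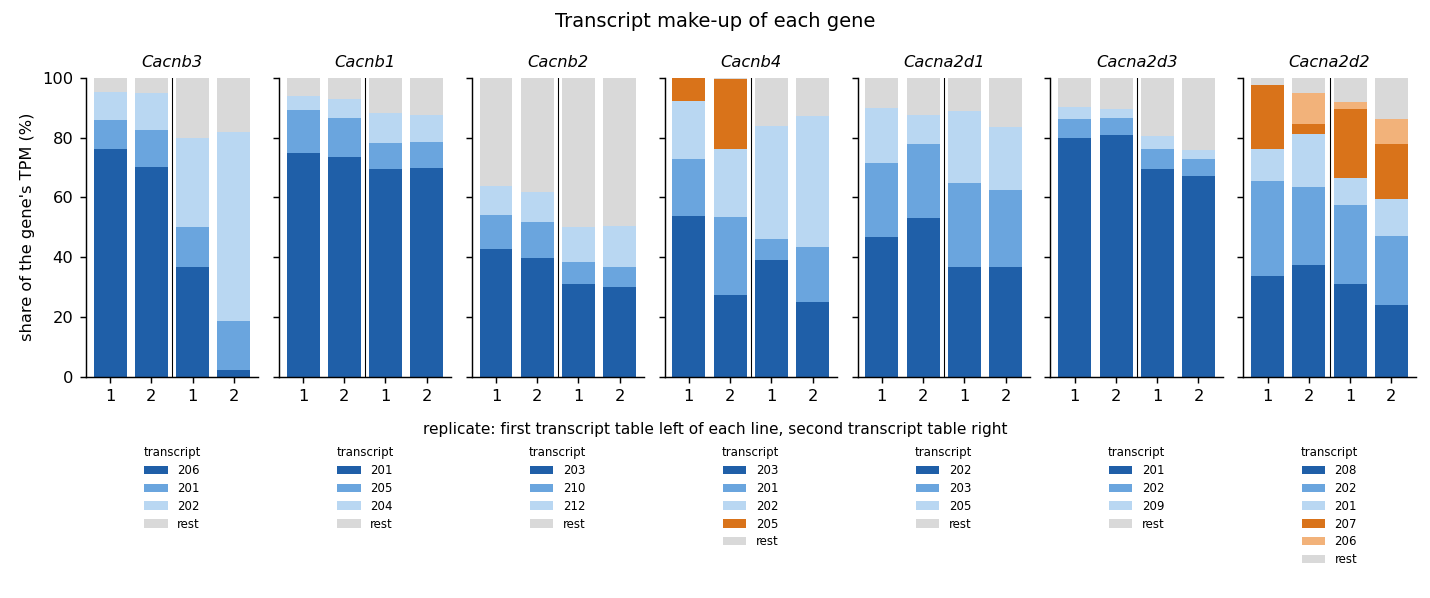
Share of each gene's TPM (y axis, percent) held by its main transcripts, as stacked bars per animal (x axis), with the first transcript table left of each vertical line and the second right; grey is the rest of the gene's transcripts. Cacnb1-201 and Cacna2d3-201 fill most of their genes in all 4 bars, and Cacnb3-206 is over 70% in the first table and 2.11% in replicate 2 of the second.

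The alpha1 genes were measured in the same libraries, and 8 of 10 were detected. The 10 take in 3 low-voltage-activated alpha1 genes. Cacna1e, the pore of R-type channels, was highest at 99.7 and 110 TPM, and Cacna1a, the pore of P/Q-type channels, followed at 96.8 and 103. Cacna1f, a pore known from the retina, was lowest at 0.01 and 0 TPM. Summed over the 7 high-voltage-activated alpha1 genes, the level was 304 ± 9.88 TPM. The 4 beta genes summed to 244 and 253 TPM, and the 3 alpha2delta genes to 134 and 145.

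Per high-voltage-activated alpha1 TPM there was thus 0.82 of beta in replicate 1 and 0.81 in replicate 2, and 0.45 and 0.47 of alpha2delta. The second table gave 0.90 and 0.87 for beta and 0.46 and 0.51 for alpha2delta. These are ratios of RNA levels between gene sums. Beta RNA was below alpha1 RNA and above alpha2delta RNA in both animals and both tables.

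Of the remaining auxiliary subunit genes, 6 of 9 were detected. Cacng8 and Cacng7, gamma subunit genes whose products also act as AMPA receptor partners, were highest at 160 and 180 TPM and at 66.5 and 61.6 TPM. Cacng1, the gamma subunit of muscle, was lowest at 0.08 and 0 TPM. Cacna2d4, the remaining alpha2delta gene, named here after its values were seen, was under the detection level at 0.45 and 0.69 TPM. All 3 alpha2delta members were above it in both animals.

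Among 7 genes of RGK GTPases, which bind beta subunits and lower channel activity, and STAC adaptors, 4 were detected. Stac2 was highest at 27.3 and 39.3 TPM, Rem2, an RGK gene, followed at 12.1 and 8.31, and Rem1 was lowest at 0.53 and 0.40. All 8 active zone genes were detected. Rims1, whose product binds beta subunits and the channel at release sites, stood at 110 and 112 TPM, Erc2 at 102 and 114, and Erc1 lowest at 24.4 and 22.2. Of 10 genes for extracellular and surface partners of alpha2delta, 8 were detected, led by the prion protein gene Prnp at 514 and 494 TPM. The matrix gene Comp was lowest at 0.23 and 0.15 TPM.

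**Figure D4:**
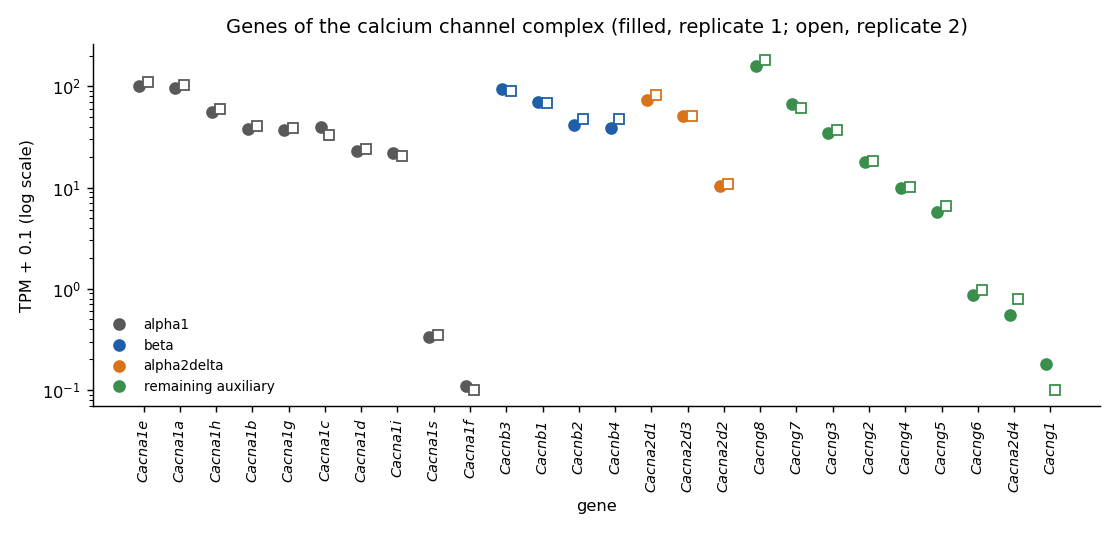
TPM plus 0.1 (y axis, log scale) of the alpha1, beta, alpha2delta and remaining auxiliary subunit genes (x axis, ordered by level within each family), with replicate 1 filled and replicate 2 open. The 7 beta and alpha2delta members lie between 10 and 94 TPM, within the range of the 8 detected alpha1 genes except for Cacna2d2, which lies below them.

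None of the 7 members differed at least 2-fold between the animals. The call needed a ratio of 2-fold, a mean count of 50 and an exact 95% interval of the ratio without 1, and it took in 159 of 14434 tested genes (1.10%), 85 higher and 74 lower in replicate 2. Under scaling by spike-ins the split was 46 higher and 168 lower. Both libraries are compared here, not conditions, and the intervals cover counting error only. The median size of the log2 ratio was 0.07 over the members and 0.14 over all tested genes. It was 0.10 over the 6456 genes with a mean count of at least 800, the range in which all members lie.

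Cacnb2, Cacna2d2 and Cacna2d1 were higher in replicate 2 beyond counting error, by 0.19 (0.11 to 0.27), 0.17 (0.03 to 0.31) and 0.15 (0.10 to 0.19) on the log2 scale. Of all tested genes, 18.7% were higher in that sense. Cacnb1 was lower in replicate 2 by that measure, with a log2 ratio of -0.07 (-0.14 to -0.0049), as were 25.6% of tested genes. Under scaling by total counts its interval included 0, at -0.06 (-0.13 to 0.0044). The intervals of Cacnb3 at -0.05 (-0.11 to 0.01), Cacnb4 at 0.04 (-0.01 to 0.10) and Cacna2d3 at 0.02 (-0.05 to 0.09) included 0, although in the second table that of Cacnb3, at -0.09 (-0.15 to -0.03), did not. Scaling by spike-ins in place of TMM shifted every log2 ratio by -0.24, and the log2 ratios of all 7 members were then below 0, from -0.06 (Cacnb2) to -0.31 (Cacnb1), with intervals that included 0 for Cacnb2 and Cacna2d2. So the directions above 0 hold only relative to the bulk of genes, while Cacnb1 and Cacnb3 were below 0 under both scalings.

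Other cell markers also differed between the animals. All 7 tested choroid plexus markers of 8 were called higher in replicate 2, with a summed level of 30.3 against 649 TPM, of which Ttr held 21.8 and 615. Of 8 immediate early genes, 4 were called lower in replicate 2, and their sum was 206 against 82.8 TPM. No marker of excitatory, inhibitory or regional hippocampal neurons, glia or vessels was called, and the 5 excitatory neuron markers were all detected, at a sum of 2765 and 3040 TPM. The part of choroid plexus cells or of neuronal activity in the member ratios was not tested. No gene of the 5 lists of channel and partner genes was called in either direction. Their median log2 ratios were 0.05 (alpha1), 0.11 (remaining auxiliary), -0.09 (RGK and STAC), 0.07 (active zone) and -0.03 (alpha2delta partners), beside -0.02 over all tested genes.

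**Figure D5:**
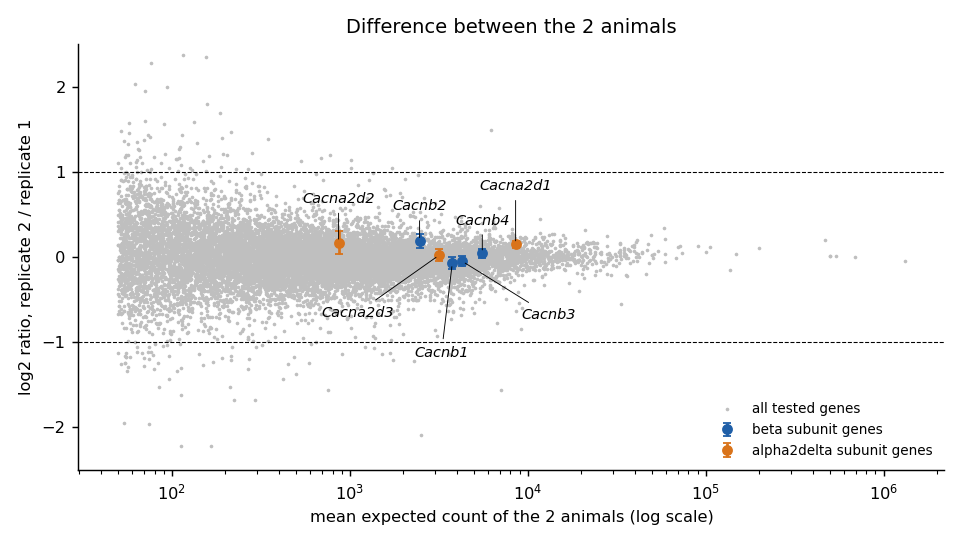
Log2 ratio of replicate 2 over replicate 1 (y axis) against mean expected count (x axis, log scale) for all 14434 tested genes (grey; 22 lie outside the plotted range), the beta genes (blue) and the alpha2delta genes (orange) with 95% counting intervals; dashed lines mark 2-fold. All 7 members lie between -0.07 and 0.19, inside the dashed lines.

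At the level of transcripts, 25 of the 67 had a mean count of at least 50, and 0 of these differed at least 2-fold by the same call, against 10.8% of 31473 tested transcripts. The second table called 5 of 31 (Cacna2d1-206, Cacnb2-202, Cacnb2-214, Cacnb3-206 and Cacnb4-201), against 10.1% of 34897. The largest of these was Cacnb3-206, with 2177 and 95.5 estimated counts, where the first table had 3567 and 2639 and a log2 ratio of -0.18 (-0.25 to -0.10). In the first table Cacnb4-203 was at 3489 and 1809 counts, a log2 ratio of -0.69 (-0.77 to -0.61), while Cacnb4-201 was at 1253 and 1783 counts, a ratio of 0.77 (0.66 to 0.87). Both Cacnb4 transcripts kept these directions in the second table, at -0.66 and 1.39. Their intervals do not include the uncertainty of assigning reads among transcripts that share most of their length.

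In the gene table the posterior SD of each member's gene count was 0 in both animals, so reads of the members were not shared with other genes there. This was not shown for the second transcript table. Summed counts in it were not whole for Cacna2d2 (1010.02 and 953.99), Cacna2d3 (3723.76 and 3213.58) and, in replicate 2, Cacnb2 (2625.24). Exons of 6 genes on the opposite strand overlap exons of Cacnb1, Cacnb2, Cacnb4 or Cacna2d2, and the highest of them, A430018G15Rik at Cacnb4, had 17 and 9 counts. The posterior SDs of these 6 genes were also 0 in both animals. The sources used here do not say whether counting used strand.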

How the data were processed

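Values came from a gene table and 2 transcript tables per library on mm10 and GENCODE M21, per notes deposited with the files. The first 2 have RSEM's layout and the third kallisto's, per the file headers; the sources used here give no aligner, tool version or strand setting. Expected counts (estimated counts in the third table), TPM, FPKM, the percent of each gene's TPM per transcript and the posterior SD of counts (a signal in counts) are as deposited by the authors. Expected counts on annotated genes totalled 34147402 and 28356913, and the 26249 entries that are neither annotated genes nor spike-ins held 83 and 71 counts and were left out. Counts were rounded to whole numbers. Ratios used TMM sizes (edgeR 4.0.16, R 4.3.3; DESeq2 1.42.0 for an alternative), a prior count of 2 and Clopper-Pearson 95% intervals (scipy 1.17.1). Means were called different where the gap exceeded both SDs with the same sign in both animals. Exon shares were summed over transcripts by GENCODE structure. The ratio call was run on simulated counts with counting error only. That run cannot show how the call handles spread between animals. The named genes were the members, the 2 highest and the lowest gene of each list and any called gene; some genes taken in by this rule are left out. Named transcripts were the 3 highest of each gene and those with 10% of its TPM. Splice forms, other transcripts and some markers were named after their values were seen. Members and lists were chosen with earlier results of these data known. No molecular identifiers are named, so intervals cover counting error only.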

Additional observations from a re-analysis of the deposited data

How the results depend on the processing

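All 7 members were detected under each alternative tried, including without replicate 1 and without replicate 2, and 0 differed 2-fold under each scaling, count minimum, prior count, fold and table. Detection already required both animals, so leaving out either replicate or lowering the limit could not change that count. The number of genes called 2-fold was 159, against 1253 with no count minimum (821 higher, 432 lower), 44 at a minimum of 200 (16 higher, 28 lower) and 753 at a fold of 1.5. Fewer or more genes enter under those settings by construction. Under spike-in scaling the 3 log2 ratios above 0 with intervals excluding 0 reversed, to -0.095 for Cacna2d1, -0.074 for Cacna2d2 and -0.057 for Cacnb2. Those of Cacnb4 and Cacna2d3, whose intervals had included 0, also changed sign, to -0.20 and -0.22. Member transcripts called 2-fold were 0 in the first transcript table and 5 in the second; the cause was not tested. Of 5 neighbouring pairs in the order of levels within the families, 4 stood apart, and 5 did in the second table, without transcripts under 400 bases and with protein-coding transcripts only, the last 2 chosen after seeing the data. In the added pair Cacnb2 was above Cacnb4, except with protein-coding transcripts only, where Cacnb4 was above Cacnb2. The leading transcript was the same in both animals for 7 members and for 5 in the second table. Of the other values, 49 of 56 ratios, 22 of 42 levels, 19 of 35 leading shares and 2 of 7 non-coding shares moved by less than their interval or SD. These counts include settings that could not move a value. Count minimum and fold threshold do not enter a ratio. With 2 animals, a level or leading share from either one alone always lies within the SD of the mean. No paired analysis was possible because all libraries belong to 1 group. With 2 libraries, SDs are imprecise, and depth limits Cacna2d2 and the short transcripts most.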
